A study of Homo sapiens with 27 samples.

Results

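The 33 genes described here code for the enzymes and regulators with which human cells make cholesterol and fatty acids: 7 of the mevalonate stage (ACAT2, HMGCS1, MVK, PMVK, MVD, IDI1 and FDPS), 11 that build sterols from squalene (FDFT1, SQLE, LSS, CYP51A1, TM7SF2, MSMO1, NSDHL, HSD17B7, EBP, SC5D and DHCR7), 5 that control the pathway (SREBF1, SREBF2, SCAP, INSIG1 and INSIG2), 3 sterol transporters (STARD4, NPC1 and NPC2) and 7 of fatty acid synthesis (ACLY, ACACA, FASN, SCD, FADS1, FADS2 and ELOVL6). They were chosen by name for their known function, though with earlier results of these data known. All 33 had a row among the 14008 genes of the deposited count table. They were followed in teloHAEC, a line of human aortic endothelial cells immortalised with telomerase. Cas9 protein loaded with guide RNA was put into 150000 cells per replicate by electroporation, and RNA was taken 2 days later and read from the 3′ end of each transcript.

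Experiment set A held 4 libraries of cells edited with guides that flank an enhancer of SMAD3 (the SMAD3 deletion), 4 of cells given a guide against HPRT (the kit's positive control, HPRT-targeted) and 4 given a guide with no target (the negative control). Experiment set B held 4 libraries with an enhancer deletion at C2orf43, now named LDAH (the LDAH deletion), with 7 libraries of the negative control and 4 HPRT-targeted. All 6 groups received Cas9 and electroporation, and no untreated cells were among the samples used here. The labels name no cloning step, so a library may hold RNA from edited and unedited cells together. Whether replicates were grown as separate cultures is not stated, so every p-value below measures the spread between these libraries, which may be technical. The number in a library's title ran from 10 to 13 for the SMAD3 deletion and from 26 to 33 for the controls of set A, and from 50 to 54 for the LDAH deletion and from 55 to 67 for the controls of set B. Anything that follows that number cannot be told apart from the deletions.

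Cholesterol synthesis starts from acetyl-CoA, passes through mevalonate and the isoprenoid farnesyl diphosphate to squalene, and ends in a series of changes to the sterol rings. Fatty acid synthesis draws on the same acetyl-CoA, which ACLY makes from citrate. The transcription factors SREBP-1 and SREBP-2, made from SREBF1 and SREBF2, drive the genes of both routes: when membranes are rich in sterol, INSIG proteins hold SCAP and its bound SREBP in the endoplasmic reticulum, and when sterol falls the complex moves to the Golgi, where SREBP is cut free. Endothelial cells also take up cholesterol from lipoproteins, and NPC1, NPC2 and STARD4 move that cholesterol between membranes.

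The 250 bases upstream of 4 of these genes are shown because they hold or lack an exact match to TCACNCCA, a short sequence that SREBPs recognise. Sequences are from RefSeq on GRCh38.p14, 5′ to 3′ on the gene's own strand, for MSMO1 (chr4:165327419-165327668, plus strand), MVK (chr12:109573544-109573793, plus strand), SREBF2 (chr22:41832855-41833104, plus strand) and SREBF1 (chr17:17836987-17837236, minus strand); SREBF2 and SREBF1 were added after their values were seen. Capitals mark TCACNCCA, the core of the sterol regulatory element, CCAAT, the box bound by NF-Y, and GGGCGG, the box bound by Sp1, each on either strand.
MSMO1: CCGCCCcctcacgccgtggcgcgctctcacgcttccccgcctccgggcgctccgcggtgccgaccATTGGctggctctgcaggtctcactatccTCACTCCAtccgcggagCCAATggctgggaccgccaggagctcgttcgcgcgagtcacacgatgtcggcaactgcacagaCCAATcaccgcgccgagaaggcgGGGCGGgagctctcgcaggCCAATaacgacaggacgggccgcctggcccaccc
MVK: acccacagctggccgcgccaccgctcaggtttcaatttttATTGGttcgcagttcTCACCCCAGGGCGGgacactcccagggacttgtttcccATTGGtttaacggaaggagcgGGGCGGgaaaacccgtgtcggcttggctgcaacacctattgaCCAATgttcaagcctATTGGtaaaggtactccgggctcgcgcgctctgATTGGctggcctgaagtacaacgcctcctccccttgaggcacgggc
SREBF2: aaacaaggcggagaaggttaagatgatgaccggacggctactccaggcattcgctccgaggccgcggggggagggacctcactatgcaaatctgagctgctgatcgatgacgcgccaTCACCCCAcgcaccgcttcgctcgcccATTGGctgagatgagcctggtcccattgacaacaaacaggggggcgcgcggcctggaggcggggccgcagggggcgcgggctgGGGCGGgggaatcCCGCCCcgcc
SREBF1: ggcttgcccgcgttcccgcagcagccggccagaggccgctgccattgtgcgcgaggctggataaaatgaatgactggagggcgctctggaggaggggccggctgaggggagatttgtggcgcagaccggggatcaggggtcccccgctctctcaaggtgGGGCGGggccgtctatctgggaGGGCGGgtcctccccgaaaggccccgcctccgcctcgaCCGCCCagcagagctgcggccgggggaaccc
The sterol core begins 156 bases before the start in MSMO1, 195 in MVK, where the GGGCGG box follows it directly, and 133 in SREBF2. The window of SREBF1 held no TCACNCCA and no CCAAT, and 3 GGGCGG. Only this start site of SREBF1 was examined, and the window does not speak for any other start of the gene. Of the 33 genes, 29 matched the promoter table with 40 start sites (ACAT2, FDFT1, SQLE and FASN did not match), and MSMO1, MVK and SREBF2 were the 3 with the sterol core. That is 7.5% of the 40 windows, against 3.20% of all 35116 promoters of the same length. CCAAT was in 60% of the 40 windows and in 32% of all promoters, and GGGCGG in 90% and 42.6%. A match describes letters in the window and is not a measured binding site. Only exact matches were sought, so a window without TCACNCCA was not shown to lack a site for SREBP.

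Total counts, in units of 1000000, ran from 3.43 to 7.75 per library, and all 33 genes passed the low-count filter in every fit. The endothelial label held: all 12 endothelial markers had a row, led by ROBO4 at 356 and PECAM1 at 354 CPM (counts scaled to a common library total, with TMM library factors over all 27 libraries), although VWF was at 2.81. Of 26 markers of other cell types 5 had a row; RGS5, a pericyte gene that endothelial cells can also express, was at 794 CPM, ACTA2 at 33.3, TAGLN at 9.36, CD68 at 6.93 and PDGFRA at 0.369. The gene at each target was lower by a log2 fold change of -0.44 ± 0.14 (SE) for SMAD3, -0.76 ± 0.40 for LDAH and -0.33 ± 0.21 (set A) and -0.23 ± 0.33 (set B) for HPRT1, and none passed the quasi-likelihood test of edgeR with Benjamini-Hochberg adjusted p-values (adjusted p = 0.702, 1.00, 0.988 and 0.999). Before any comparison, 7 libraries stood apart from the other 20: 1 HPRT-targeted and 1 SMAD3 deletion library of set A (replicates 3 and 4), 2 negative controls (6 and 7), 2 HPRT-targeted (2 and 4) and 1 LDAH deletion (4) of set B. Their median correlation with the rest of their set was 0.880 to 0.968, against 0.944 to 0.986, and the share of counts from ribosomal protein genes was 14.2% to 16.4% in them, against 8.76% to 13.7%. Results are therefore given with them and, for the values that turn on them, without them.

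SCD, the desaturase that makes oleate, was the most abundant of the 33 transcripts, at a mean of 653 CPM over the 27 libraries. A 3′ library yields about 1 read per transcript whatever its length, so these levels were compared between genes without division by length. ACLY (345), INSIG1 (326), FDFT1, the squalene synthase (325), the desaturases FADS1 (281) and FADS2 (248), and FASN, the fatty acid synthase (238), followed. FDPS, which makes farnesyl diphosphate, was at 229.6 CPM, the squalene epoxidase SQLE at 199 and HMGCS1, which condenses acetyl units into HMG-CoA, at 192. The first committed enzyme of fatty acid synthesis, ACACA, stood at 54.8 CPM, and the 2 SREBP genes at 50.6 (SREBF2) and 28.5 (SREBF1). The lowest were MVD at 19, INSIG2 at 13, HSD17B7 at 11.8 and TM7SF2, a sterol reductase, at 4.36 CPM. FADS1 and FADS2 overlap on opposite strands, as do ACAT2 and TCP1, SREBF1 and RAI1, and NPC1 and RMC1 at the member's 3′ end, and TM7SF2 overlaps VPS51 on the same strand. Whether the counting used strand is not given in the sources used here, so those 6 levels are uncertain. HMGCS1, IDI1, FDPS and LSS are also overlapped at the 3′ end, by antisense genes that have no row in the count table. Their levels carry the same doubt.

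**Figure D1:**
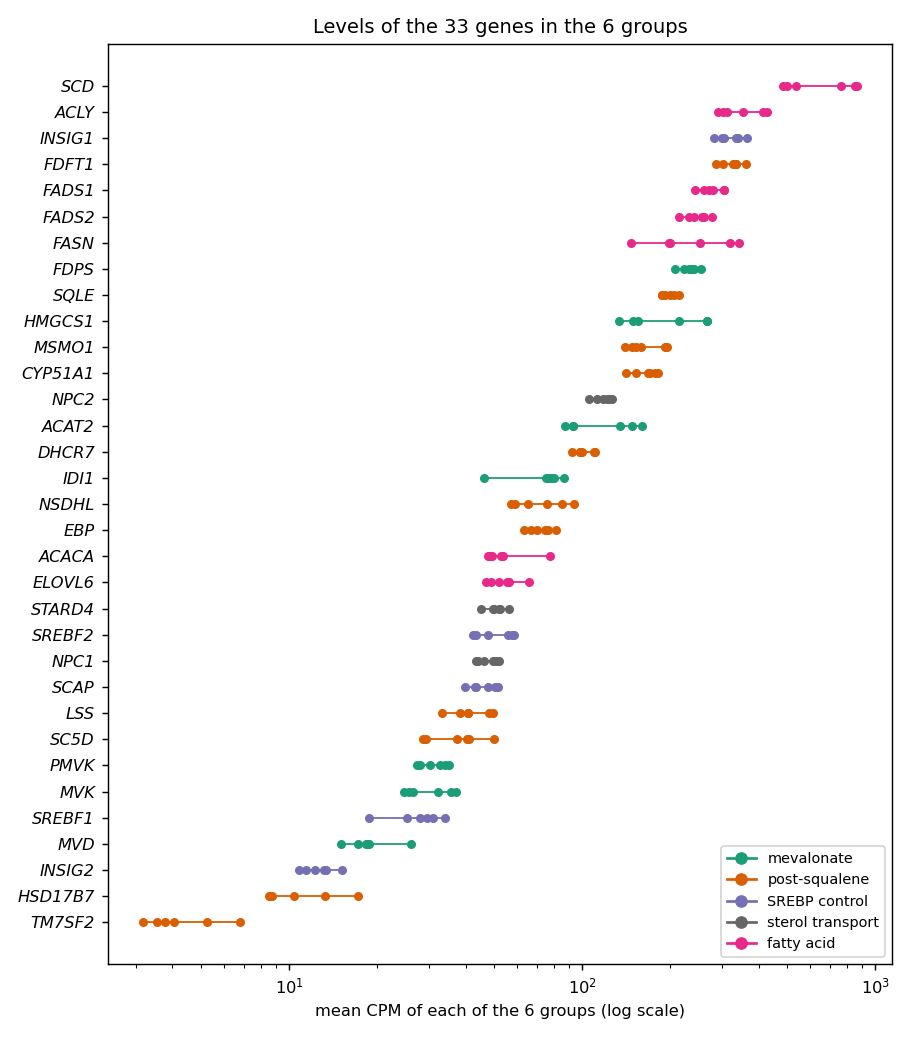
Mean level of each of the 33 genes in each of the 6 groups, in CPM on a log axis, coloured by role, with a line from the lowest to the highest group mean. SCD lies highest and TM7SF2 lowest, and the group means of FASN, HMGCS1, ACAT2 and SCD are spread more widely than those of INSIG1 and FDFT1.

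This order is of means over all libraries and did not hold in each group, although SCD was highest in all 6. In the negative controls of set A, FASN (342 CPM) lay above all members but SCD and ACLY (416), and in those of set B, INSIG1 (366) and FDFT1 (326) lay above FADS1 (305) and ACLY (302). Neighbours in the order, such as INSIG1 and FDFT1, overlapped in their ranges over the libraries. INSIG1, which holds SCAP back when sterol is high, was at 276, 309, 296 and 319.6 CPM in the 4 negative controls of set A. In the 7 of set B its lowest value was 306, its median 327 and its highest 459 CPM. FDFT1 was at 342, 318, 352 and 324 CPM in set A and at a lowest value of 241, a median of 269.5 and a highest of 555 CPM in set B. In set A the ranges of the 2 genes overlapped slightly, since the lowest FDFT1 library lay below the highest INSIG1 library. FDPS was at 234, 258, 221 and 252 CPM in the negative controls of set A and at a lowest value of 151, a median of 182 and a highest of 316 CPM in those of set B, and NPC2, the lumenal cholesterol carrier of the lysosome, was at 119.9, 127, 124 and 116 and at a lowest value of 92, a median of 120.2 and a highest of 137 CPM. FDPS of set B thus ran both below and above its set A values, with its top values in the 2 libraries that stood apart, and the NPC2 ranges overlapped. Within groups, ACLY varied least: the SD of its log2(CPM + 1) around the group means was 0.0938, and 0.2% of the 1000 genes nearest to it in level had a lower one. Without the 7 libraries that stood apart its SD was 0.0869 and that share 4.6%, close to FADS1 at 0.0879 and 4.7%. FASN varied most among the abundant members, with an SD of 0.969 over all libraries and 0.183 without the 7 that stood apart.

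After the SMAD3 deletion none of the 33 genes passed the test, and the small differences were split, 16 higher and 17 lower, with a median log2 fold change of -0.01 against 0.0014 over the 11467 genes tested. At an edgeR adjusted p under 0.05, 0 members and 0% of all genes were called, and DESeq2 and limma voom also called 0 members, here and in the 8 other comparisons of edited cells below. At an unadjusted p under 0.05, 2 members were lower, ACLY and HMGCS1, against 2.74% of all genes, and none was higher, against 4.05%. ACLY was at 364, 362, 344 and 349 CPM in the 4 SMAD3 deletion libraries, at 419.9, 418, 408 and 416 in the negative controls and at 463, 416, 404 and 424 in the HPRT-targeted libraries. Every SMAD3 deletion library lay below every control library for ACLY, although the gap was narrow; 2.85% of all genes had deletion libraries wholly below the negative controls. The log2 fold change of ACLY against the negative control was -0.22 ± 0.09 (SE), with an unadjusted p of 0.0253 and an adjusted p of 0.730 by the edgeR test. HMGCS1 was at 213, 239, 225 and 179 CPM in the deletion libraries and at 283, 316, 241 and 231 in the negative controls, with overlapping ranges and a log2 fold change of -0.31 ± 0.14 (edgeR adjusted p = 0.730).

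None of the other 31 members reached an unadjusted p under 0.05 after the SMAD3 deletion. By role, 5 of 7 mevalonate genes, 4 of 11 sterol genes, 1 of 5 control genes, 1 of 3 transporters and 6 of 7 fatty acid genes had a negative log2 fold change. At the ends of the range lay FASN, HMGCS1 and LSS, the lanosterol synthase (-0.22 ± 0.14), on the low side and FADS2, HSD17B7 (0.28 ± 0.22) and PMVK (0.27 ± 0.14) on the high side. FASN had -0.43 ± 0.33 and FADS2 0.38 ± 0.19, and both values came largely from replicate 4 of the deletion, a library that stood apart. That library held FASN at 101 CPM against 238 to 365 in the other 3, and FADS2 at 429 against 214 to 239.8. Without the 7 libraries FASN was at -0.17 ± 0.12 and FADS2 at 0.08 ± 0.09. Then 4 members lay below the negative control at an unadjusted p under 0.05, against 5.35% of 11574 genes: ACLY (-0.22 ± 0.08), HMGCS1 (-0.24 ± 0.11), SCD (-0.21 ± 0.08) and ACAT2 (-0.22 ± 0.10), which makes acetoacetyl-CoA at the head of the route. None of the 4 was called by the edgeR test (adjusted p = 0.330 to 0.455), and for ACLY and SCD the 3 deletion libraries lay below the 4 controls, as for 5.76% of all genes.

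Against the HPRT-targeted libraries of set A the SMAD3 deletion gave 23 lower and 10 higher members, with 0 called by the edgeR test (0% of all genes) and 2 at an unadjusted p under 0.05, ACLY (-0.25 ± 0.09) and SC5D (-0.29 ± 0.13), against 2.88% of all genes; 0 were higher, against 2.96%. All deletion libraries lay below all HPRT-targeted ones for ACLY and MVK, the mevalonate kinase, as for 1.94% of all genes. The lower members included all 7 mevalonate genes, with log2 fold changes from -0.31 to -0.05. FASN (-0.33 ± 0.33) and HMGCS1 (-0.31 ± 0.14) had the lowest values, and HSD17B7 (0.29 ± 0.22), FADS2 (0.27 ± 0.19, but -0.06 without the 7 libraries) and SREBF1 (0.25 ± 0.23) the highest. Without the 7 libraries 9 members were lower at an unadjusted p under 0.05, against 7.62% of all genes, the lowest adjusted p being 0.0988 for SCD (-0.30 ± 0.08). In 8 members (ACAT2, HMGCS1, MVK, FDPS, FDFT1, LSS, ACLY and SCD) the 3 remaining deletion libraries all lay below the 3 remaining HPRT-targeted ones, as in 10.3% of all genes. The SMAD3 deletion libraries enter both comparisons, so the 2 sets of values are not independent.

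**Figure D2:**
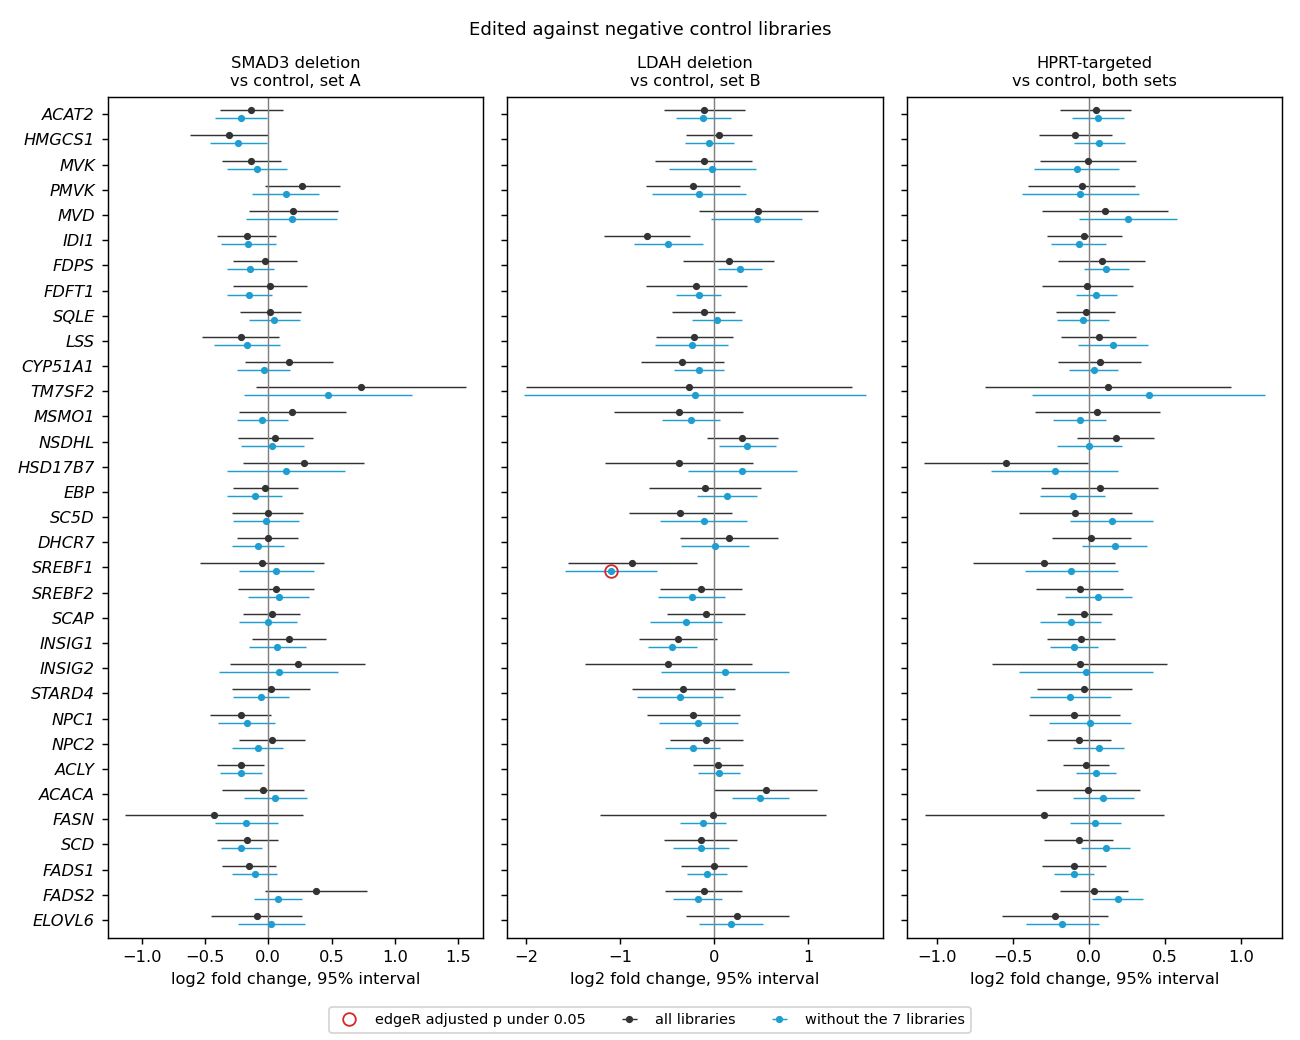
Log2 fold change and 95% interval of each of the 33 genes for the SMAD3 deletion, the LDAH deletion and HPRT targeting against the negative control, with all libraries (black) and without the 7 that stood apart (blue); a red ring marks an edgeR adjusted p under 0.05. Only SREBF1 in the LDAH deletion without the 7 libraries carries a ring, and most intervals cross 0.

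After the LDAH deletion 24 of the 33 members had negative log2 fold changes, among them all 5 control genes, all 3 transporters and 9 of 11 sterol genes, with a median of -0.11 against 0.01 over 11769 genes. That pattern was weaker without the 7 libraries that stood apart. SQLE (0.03), NSDHL (0.35), HSD17B7 (0.30), EBP (0.14) and DHCR7 (0.01) of the sterol genes and INSIG2 (0.12) were then positive. The other sterol and control genes and the 3 transporters stayed negative. With all libraries edgeR called 0 members and 0% of genes at an adjusted p under 0.05. At an unadjusted p under 0.05, IDI1 and SREBF1 were lower, against 3.33% of all genes, and ACACA was higher, against 1.28%. The summed level of the 12 endothelial markers was 1146 to 2074 CPM in the deletion libraries and 904 to 2120 in the negative controls, and 1983 to 2074 against 1732 to 2120 without the libraries that stood apart. Single markers, named after their values were seen, differed in both directions without the libraries that stood apart. CDH5 was at 126 to 210 CPM in the deletion and 250 to 325 in the negative controls, and EGFL7 at 95.2 to 106 against 43.9 to 71.2. In bulk RNA a lower level of a transcript per cell and fewer cells of a kind that makes it cannot be told apart.

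SREBF1 was at 22.9, 16, 17.4 and 18.7 CPM in the 4 LDAH deletion libraries. In the 7 negative controls of set B it ranged from 18.5 to 57.6 CPM, with a median of 29.9, and in the HPRT-targeted libraries it was at 36.9, 13.1, 35.8 and 25.9. The deletion libraries lay at the low end, but the 2 negative controls that stood apart, at 18.5 and 21.4 CPM, reached into their range, and 1 HPRT-targeted library that stood apart lay below it. The log2 fold change against the negative control was -0.87 ± 0.33 (95% interval -1.56 to -0.18, unadjusted p = 0.0166, edgeR adjusted p = 0.971). Once the 7 libraries were removed, the 3 deletion libraries at 16 to 22.9 CPM lay below the 5 negative controls at 28.8 to 57.6, and the log2 fold change of -1.10 ± 0.23 passed the edgeR test (adjusted p = 0.0123). It was the only one of the 33 genes to do so, while 1.57% of 12153 genes were called lower and 0.173% higher. That call rests on few libraries. Leaving out 1 more of the 10 remaining libraries kept it in 7 of 10 fits, with log2 fold changes from -1.25 to -0.90, and lost it without deletion replicate 2 (adjusted p = 0.0775), deletion replicate 3 (0.0920) or negative control replicate 5 (0.0515). RAI1, which overlaps the 3′ end of SREBF1 on the other strand, had a log2 fold change of -0.39 in the same fit (adjusted p = 0.498), and what part its reads play in the SREBF1 count was not tested.

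IDI1, the isomerase that makes the allylic isoprenoid unit, had the smallest p of the members with all libraries. It was at 55.2, 57, 31.1 and 41.8 CPM in the deletion libraries, from 58.7 to 101 CPM in the negative controls and at 66.5, 103, 71.6 and 70.6 in the HPRT-targeted libraries. All 4 deletion libraries lay below all 11 control libraries, and 0.697% of all genes lay wholly below the negative controls in this way. The log2 fold change was -0.71 ± 0.22 (95% interval -1.17 to -0.25) against the negative control, with an unadjusted p of 0.00467 and an edgeR adjusted p of 0.832, and -0.76 ± 0.24 against the HPRT-targeted libraries, where 1.22% of all genes lay wholly below. With the 7 libraries removed it was -0.49 ± 0.18 (edgeR adjusted p = 0.202). Leaving out deletion replicate 3 as well gave -0.24 (edgeR adjusted p = 0.693).

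ACACA had the opposite sign. It was at 83.1, 86, 91.2 and 51.6 CPM in the deletion libraries and from 28.4 to 68.3 CPM in the negative controls, a log2 fold change of 0.55 ± 0.26 (edgeR adjusted p = 1.00). Its 3 highest deletion libraries lay above every control of both sets, and the fourth, which stood apart, lay among them. After removal of the 7 libraries ACACA was at 0.49 ± 0.15 (edgeR adjusted p = 0.0828). INSIG1, itself a target of SREBP, was at 260.0, 283, 194 and 387 CPM after the deletion, and its log2 fold change was -0.38 ± 0.20 with all libraries and -0.44 ± 0.12 without the 7 (edgeR adjusted p = 0.0697). With deletion replicate 3 also left out INSIG1 was at -0.28 (edgeR adjusted p = 0.422), and the edgeR adjusted p of ACACA was 0.281. In the fit without only the 7, the 3 deletion libraries lay below the 5 controls for IDI1, SREBF1 and INSIG1, as for 5.42% of all genes, and above them for FDPS, NSDHL and ACACA, as for 3.51%. NSDHL, a sterol dehydrogenase, was at 98.2, 86.2, 93.8 and 96.9 CPM in the 4 deletion libraries, a narrow band at the upper end of the 63.7 to 96.6 CPM of the negative controls, with a log2 fold change of 0.35 ± 0.15 and an edgeR adjusted p of 0.279 without the 7 libraries. The fatty acid synthase FASN was at -0.01 ± 0.57 (95% interval -1.21 to 1.19) with all libraries and at -0.12 ± 0.12 (-0.36 to 0.13) without the 7. MVD, the mevalonate diphosphate decarboxylase, was at 0.47 ± 0.30 and INSIG2 at -0.49 ± 0.42 with all libraries, and INSIG2 was at 0.12 ± 0.33 without the 7. SREBF2 was at -0.14 ± 0.21 and -0.24 ± 0.17 in those 2 fits.

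Against the HPRT-targeted libraries of set B the LDAH deletion gave 18 lower and 15 higher members, 0 called by the edgeR test (0% of all genes) and 1 at an unadjusted p under 0.05, IDI1, which was lower, against 2.87% of all genes; 0 were higher, against 1.35%. SREBF1 stood at -0.58 ± 0.36 and, without the 7 libraries, at -0.97 ± 0.28 (edgeR adjusted p = 0.145). MSMO1 (-0.39 ± 0.36) was the next lowest, and HSD17B7 (0.60 ± 0.42), ACACA (0.53 ± 0.30) and MVD (0.49 ± 0.34) were the highest with all libraries. In the comparison without the 7, which sets 3 deletion against 2 HPRT-targeted libraries, 8 members, among them FDPS, NSDHL, EBP and ACACA, lay wholly above, as did 12.7% of all genes, and 6, among them IDI1, SREBF1 and INSIG1, wholly below, as did 13% of all genes. The difference between the 2 deletion effects, each against the negative control of its own set, was tested in a fit of all 27 libraries. No member was called (0% of 12055 genes). INSIG1 (-0.53 ± 0.25) and IDI1 (-0.52 ± 0.25) were lower after the LDAH than after the SMAD3 deletion at an unadjusted p under 0.05, as were 2.7% of all genes; 0 were higher, against 0.946%. ACACA (0.61 ± 0.34), FASN (0.44 ± 0.76) and HMGCS1 (0.37 ± 0.22) had the highest differences. HSD17B7 and INSIG2, at -0.63 ± 0.47 and -0.70 ± 0.53, had the opposite sign without the 7 libraries (0.15 and 0.02). For SREBF1 that difference was -0.80 ± 0.43 with all libraries and -1.18 ± 0.29 without the 7 (edgeR adjusted p = 0.0504), and the latter missed the threshold of 0.05.

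**Figure D3:**
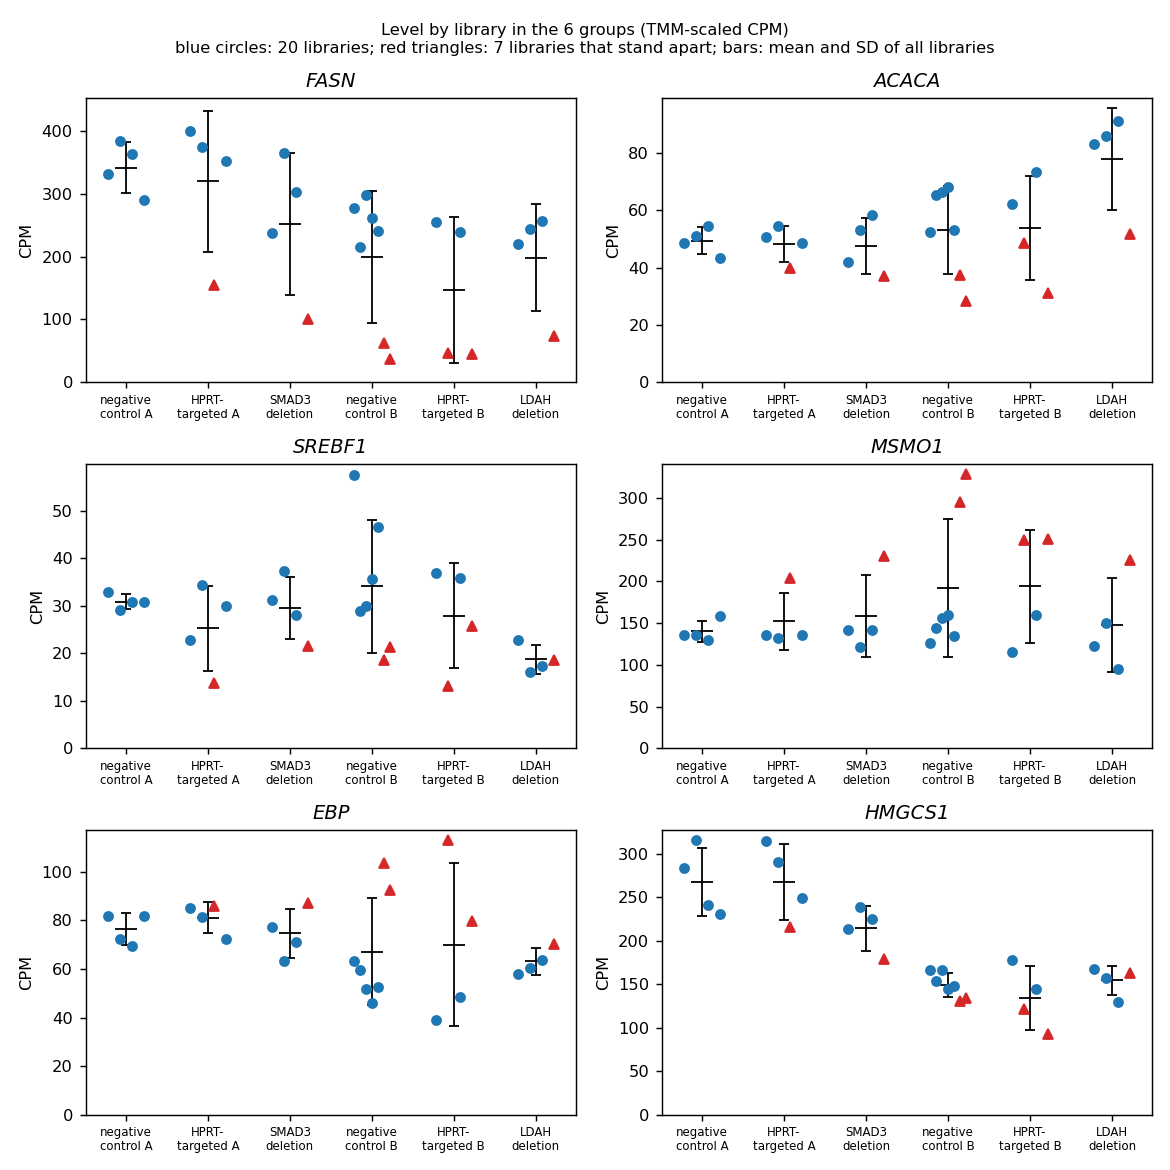
Level of FASN, ACACA, SREBF1, MSMO1, EBP and HMGCS1 in each library of the 6 groups, in CPM; bars give mean and SD over all libraries and red triangles the 7 libraries that stood apart. FASN is at 37.6 to 154 CPM in the triangles and at 215 to 400 in the other libraries, SREBF1 is low in all 4 LDAH deletion libraries, and HMGCS1 is lower in set B.

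HPRT targeting, the editing control in both sets, left all 33 genes short of the threshold. In set A 22 of 33 members had a positive log2 fold change, with a median of 0.06 against -0.005 over all genes, and edgeR called 0 members and 0% of all genes. PMVK, the second kinase of the mevalonate route, was at 38.9, 31.5, 32.9 and 32.6 CPM in the HPRT-targeted and at 27.2, 28.8, 26.3 and 26.7 in the negative control libraries. Its 2 groups did not overlap, as for 2.37% of all genes in that direction, and its log2 fold change was 0.32 ± 0.14 (unadjusted p = 0.0404, edgeR adjusted p = 0.988). SC5D, the sterol C5 desaturase, was at 44.8, 43.4, 57.5 and 54.2 CPM against 46, 39.7, 41.6 and 36.6, with overlapping ranges and a log2 fold change of 0.28 ± 0.13 (unadjusted p = 0.050, just under the threshold). Those 2 were the members higher at an unadjusted p under 0.05, against 1.12% of all genes. MVD (0.27 ± 0.16) had the next highest value, and SREBF1 (-0.30 ± 0.23), ELOVL6 (-0.21 ± 0.17) and NPC1, the lysosomal membrane transporter (-0.17 ± 0.11), the lowest.

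In set B 24 of 33 values lay below the negative control, with a median of -0.07 against -0.02 over all genes, and again 0 members and 0% of all genes were called by edgeR. HSD17B7, a sterol ketoreductase of low level, was the 1 member at an unadjusted p under 0.05, against 0.816% of all genes in that direction. It was at 8.78, 7.59, 10.6 and 8.0 CPM in the HPRT-targeted libraries and from 9.63 to 35.5 CPM in the negative controls, a log2 fold change of -0.98 ± 0.39 (edgeR adjusted p = 0.999). The 2 highest negative controls, 21.9 and 35.5 CPM, were the libraries that stood apart, and without the 7 the value was -0.38 ± 0.34. SC5D had the next smallest p, at 29.1, 27.2, 39.5 and 18.5 CPM against a lowest value of 20.3, a median of 38.2 and a highest of 50.9 CPM, with ranges that overlapped. FASN was at -0.44 ± 0.58, with its low values in the libraries that stood apart, and NSDHL (0.17 ± 0.18), FDPS (0.10 ± 0.23) and LSS (0.09 ± 0.19) had the highest values. With the 7 left out FASN was at -0.07 ± 0.14, NSDHL at -0.08 ± 0.17, FDPS at 0.15 ± 0.13 and LSS at 0.19 ± 0.21. With both sets in 1 fit and the set as a term, 22 members were lower, the median was -0.03 against -0.02 over all genes, and 0 members and 0% of genes were called by edgeR. HSD17B7 was at -0.55 ± 0.26 (unadjusted p = 0.0471, edgeR adjusted p = 0.937), against 1.39% of all genes lower at that level; 0 members were higher, against 1.81%. NSDHL had the next smallest p and the highest value, 0.18 ± 0.12. In its 8 HPRT-targeted libraries it was at 68, 53.4, 80.1 and 60.6 CPM in set A and 80.2, 93.7, 56.6 and 112 in set B, against 60.6, 59, 48.3 and 61.6 in the negative controls of set A and a lowest value of 63.7, a median of 73.7 and a highest of 96.6 CPM in those of set B, and the groups overlapped within both sets. SREBF1 (-0.30 ± 0.23) and FASN (-0.29 ± 0.38, but 0.04 without the 7 libraries) had low values, and MVD (0.10 ± 0.20) and FDPS (0.08 ± 0.14) high ones. Without the 7 libraries the balance of that fit turned to 19 higher and 14 lower, with a median of 0.03. PMVK and SC5D were at 0.32 ± 0.14 and 0.28 ± 0.13 in set A and at -0.33 ± 0.24 and -0.39 ± 0.26 in set B. The test of the difference between the sets gave -0.66 ± 0.29 and -0.67 ± 0.31, with 0 members and 0% of genes called by edgeR and these 2 at an unadjusted p under 0.05, against 0.83% of all genes lower at that level; 0 were higher, against 0.489%. With the 7 libraries left out SC5D was at 0.08 ± 0.26 in set B and its difference between the sets at -0.13 ± 0.29, while PMVK was at -0.58 ± 0.29 and -0.92 ± 0.32. HSD17B7 had the lowest difference (-0.97 ± 0.48), and IDI1 (0.17 ± 0.25), SCAP (0.15 ± 0.23) and NPC1 (0.13 ± 0.28) the highest.

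The clearest differences in level lay between the experiment sets. In the negative control cells of set B, ACAT2, HMGCS1, ACLY and SCD, which stand at the head of the sterol route, at the source of cytosolic acetyl-CoA and at the desaturation of fatty acids, were lower than in those of set A, and HSD17B7 was higher. These 5 members had an edgeR adjusted p under 0.05 in the fit of all 27 libraries, where 4.49% of 12055 genes were lower and 5.11% higher. Over the 33 genes 15 were higher and 18 lower, with a median of -0.03 against 0.02 over all genes. DESeq2 called 5 members as well, against 11.8% of all genes in either direction, and limma voom with sample quality weights 13, against 30.2%. The set cannot be told apart from anything else that differed between the 2 experiments. Among the 20 libraries that did not stand apart, the share of counts from ribosomal protein genes was 8.76% to 10.7% for those of set B but 11.2% to 13.7% for those of set A, and the summed endothelial markers of the negative controls were at 1604 to 1698 CPM for the 4 of set A but 1732 to 2120 for the 5 of set B, without overlap. Their part in these results was not tested.

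HMGCS1 was at 283, 316, 241 and 231 CPM in the 4 negative controls of set A and from 131 to 166 CPM, with a median of 148, in the 7 of set B. SCD was at 808, 897, 873 and 881 CPM in set A and from 416 to 714 CPM in set B. ACLY was at 419.9, 418, 408 and 416 and from 254 to 329.9 CPM, and ACAT2 at 144, 159, 131 and 160.0 and from 68.9 to 123 CPM. For each of these 4 genes every negative control of set B lay below every one of set A, as for 6.69% of all genes, and for NSDHL and SCAP, the escort of SREBP, every one lay above, as for 5.21%. The log2 fold change of set B against set A was -0.84 ± 0.15 for HMGCS1 (edgeR adjusted p = 0.000375) and -0.69 ± 0.15 for SCD (0.00287). It was -0.46 ± 0.09 for ACLY (edgeR adjusted p = 0.00119) and -0.67 ± 0.16 for ACAT2 (0.00597). TCP1, which overlaps the 3′ end of ACAT2 on the other strand, was at -0.27 ± 0.12 (edgeR adjusted p = 0.173). Without the 7 libraries TCP1 was at -0.32 ± 0.09 (edgeR adjusted p = 0.00961). What part its reads play in the ACAT2 count was not tested. HSD17B7 was at 10.4, 8.31, 8.45 and 7.1 CPM in set A and from 9.63 to 35.5 CPM in set B, with overlapping ranges and a log2 fold change of 1.00 ± 0.32 (edgeR adjusted p = 0.0498). That call held in 10 of 27 fits that each left out 1 library, and without the 7 libraries the value was 0.56 with an adjusted p of 0.0735. Among members that were not called, FASN (-0.78 ± 0.49) lay low, and MSMO1 (0.46 ± 0.28) and INSIG2 (0.41 ± 0.36, but -0.08 without the 7 libraries) lay high.

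Without the 7 libraries 13 members were called between the sets, 11 of them lower in set B, against 13.5% of all genes lower and 14.6% higher. In 9 members the 5 remaining negative controls of set B lay below the 4 of set A, as for 12.7% of all genes, and in 3, NSDHL, SCAP and FADS1, they lay above, as for 11.6%. The called lower ones held 5 of the 7 mevalonate genes (ACAT2, HMGCS1, MVK, IDI1 and FDPS), FDFT1, LSS and EBP of the sterol series, and ACLY, FASN and SCD. FDPS was at -0.50 ± 0.09 (edgeR adjusted p = 6.27e-05) where all libraries gave -0.22 ± 0.18, and MVK at -0.60 ± 0.15 where all libraries gave -0.43 ± 0.18. FASN was at -0.40 ± 0.11 (edgeR adjusted p = 0.00669), with 5 libraries at 215 to 299 CPM in set B and 4 at 290.0 to 384 in set A. NSDHL (0.33 ± 0.12) and FADS1 (0.28 ± 0.08) were the 2 higher ones. No gene of the control arm or of the transporters was called in either fit: SREBF2 stood at -0.07 ± 0.13 and SCAP at 0.24 ± 0.14 without the 7. When 1 more of the 20 libraries was left out, 11 to 14 members were called. ACAT2, HMGCS1, MVK, FDPS, FDFT1, EBP, ACLY, FASN, SCD and FADS1 were called in all 20 such fits, IDI1 in 17, LSS in 18 and NSDHL in 11. IDI1 lost its call without negative control replicate 1 or 4 of set A (edgeR adjusted p = 0.0605 and 0.0997) or replicate 3 of set B (0.0676), and LSS without replicate 2 of set A (0.106) or replicate 5 of set B (0.0623). For NSDHL the adjusted p ranged from 0.0303 to 0.172 over these fits.

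**Figure D4:**
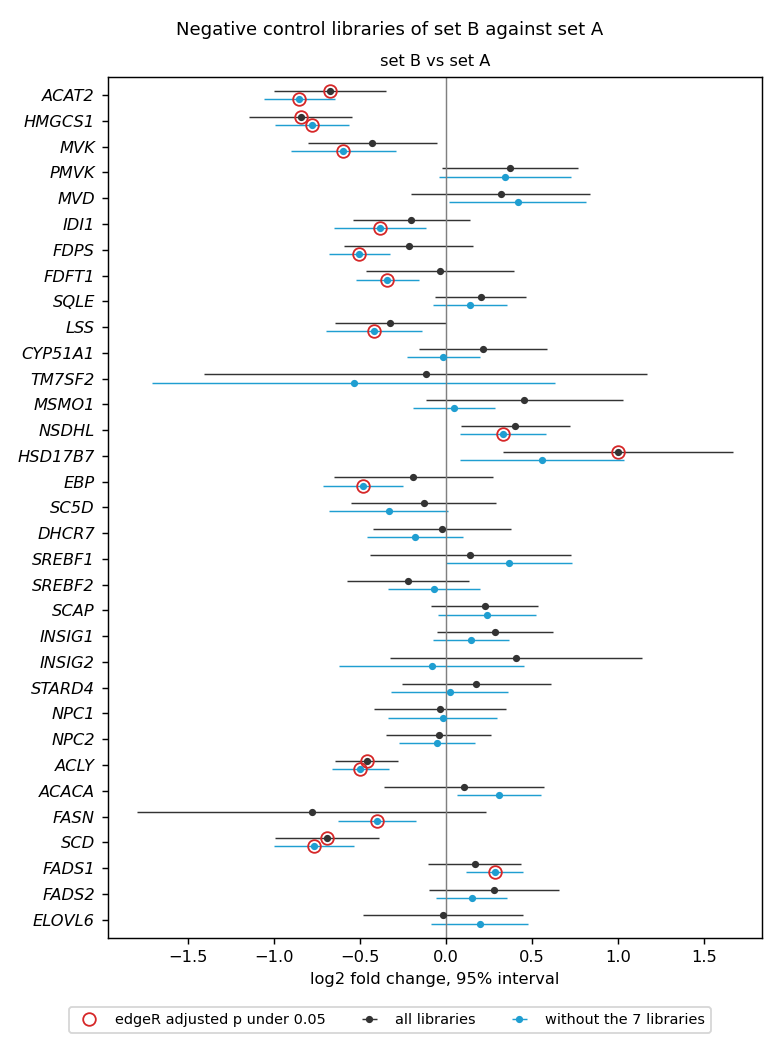
Log2 fold change and 95% interval of each of the 33 genes between the negative controls of set B and set A, with all libraries (black) and without the 7 that stood apart (blue); a red ring marks an edgeR adjusted p under 0.05. Rings lie at 5 genes with all libraries and at 13 without the 7, and the left-hand rings include HMGCS1, ACAT2 and SCD in both fits.

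The same levels can be read in the edited cells of each set. SCD had a mean of 856 ± 127 CPM (SD, n = 4) in HPRT-targeted cells of set A and of 499.9 ± 88.6 CPM (SD, n = 4) in those of set B. HMGCS1 was at 268 ± 43.6 CPM (SD, n = 4) and 134 ± 36.5 CPM (SD, n = 4) in those 2 groups, and ACLY at 427 ± 25.2 CPM (SD, n = 4) and 290.3 ± 22.1 CPM (SD, n = 4). ACAT2 ranged from 152 to 172 CPM in the first and from 78 to 112 in the second. HSD17B7, called higher in the negative controls of set B, overlapped between the HPRT-targeted groups. It was at 5.6 to 9.97 CPM in those of set A and at 7.59 to 10.6 in those of set B. The SMAD3 deletion libraries held SCD at 765 ± 48.4 CPM (SD, n = 4) and the LDAH deletion libraries at 486 ± 102 CPM (SD, n = 4). In the negative control and HPRT-targeted cells, and between the 2 deletions, the set B mean of SCD was the lower one. The 2 deletions are different edits, so set and edit cannot be told apart there.

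The 7 libraries that stood apart carried their own pattern over the members, described here without a test because they were picked from the same counts. Each was compared with the mean of those libraries of its own group that did not stand apart, on the log2(CPM + 1) scale. The values below are medians of the 7 differences. FASN was lower in 7 of 7, by a median of -2.01 (-2.74 to -1.28): it was at 154 and 101 CPM in the 2 of set A and at 63.2, 37.6, 46.7, 45.5 and 72.9 in the 5 of set B. The lowest value among the other 20 libraries was 214.6 CPM. Among all 12055 genes 2.73% had a lower median difference than FASN. ACACA (-0.68), ELOVL6, the elongase of palmitate (-0.67), and SREBF2 (-0.43) were also lower in 7 of 7, and SREBF1 (-0.81) in 6 of 7.

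Of the 11 enzymes of the sterol series 5 were higher in all 7 libraries. MSMO1, the sterol methyl oxidase, was higher in 7 of 7, by a median of 0.88, with 204 and 231 CPM in the 2 libraries of set A and 226 to 329 in the 5 of set B. The other 20 libraries held it at 95.5 to 160.0 CPM, below all 7. EBP, the sterol isomerase (0.75), CYP51A1, the lanosterol demethylase (0.62), FDFT1 (0.56) and NSDHL (0.40) were the other 4. The remaining 6 were mixed: TM7SF2 was higher in 6 of 7, SQLE in 5, and LSS (0.20), HSD17B7 (0.29), SC5D (0.04) and DHCR7 (0.27) in 4. Outside that series STARD4 (0.53), a transporter, and INSIG1 (0.43), a control gene, were higher in 7 of 7. In all, 7 of 33 members were higher in all 7 libraries, 21.2% against 13.6% of all genes, and 4 were lower in all 7, 12.1% against 19.1%. SCD (-0.0022), ACLY (-0.02) and SQLE (0.02) had medians near 0.

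**Figure D5:**
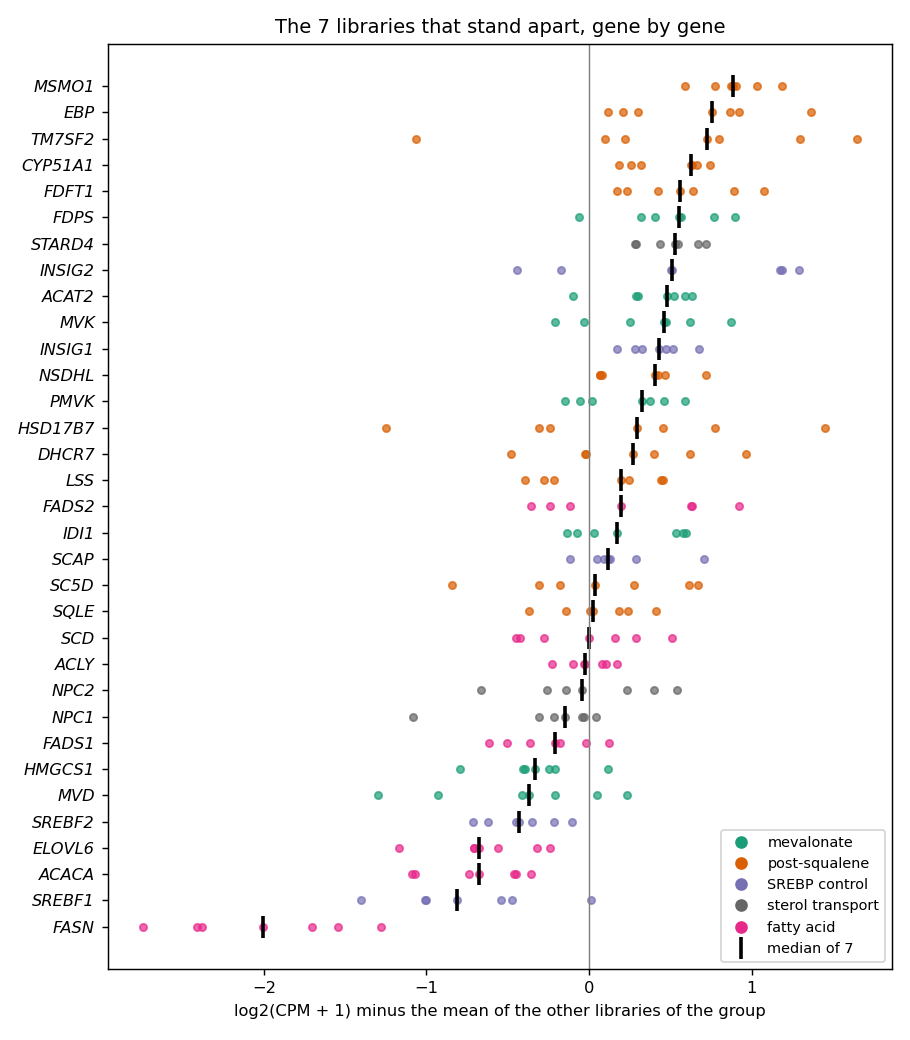
Log2(CPM + 1) of each of the 7 libraries that stood apart minus the mean of those in its group that did not. The 33 genes are ordered by their median (black bar) and coloured by role. FASN lies farthest to the left at -2.01, and MSMO1 farthest to the right at 0.88.

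Members with longer transcripts tended to have lower differences in these libraries. The longest coding transcripts of FASN (8565 bases), ACACA (9961) and ELOVL6 (6454) in GENCODE 29 are long, and those of MSMO1 (2269), EBP (1775) and TM7SF2 (1722) are short. Across the 33 genes Spearman's rho between transcript length and the median difference was -0.58, and across the 11155 of 12055 genes with a length it was -0.41. These points share the same 7 libraries. In 4 length bins of equal size, from the shortest to the longest genes, the median difference was 0.28, 0.07, -0.11 and -0.38. MSMO1 and EBP lay above the value of their own bin and FASN and ACACA below theirs, but they were named for their extreme differences. Members also lay off their bin the other way. MVD (1823 bases, -0.37) and NPC2 (1436 bases, -0.05) lay below the value of the shortest bin, and SCD (5362 bases, -0.0022) above that of the longest. For GC content rho was -0.21 over the members and -0.15 over all genes. The part of length or of RNA quality in the differences was not tested.

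The neighbouring branches of the pathway were read from 50 genes in 5 lists, of which ACACB and ELOVL7 had no row. No gene of these lists was called by the edgeR test in any of the 9 edit comparisons with all libraries. At an unadjusted p under 0.05 in the LDAH deletion, 0 of 9 genes of SREBP processing (the proteases, ubiquitin ligases and anchors that release or hold SREBP), 1 of 11 of the isoprenoid branches (lower), 1 of 17 of fatty acid activation and elongation (higher), 0 of 6 of sterol sensing and efflux and 0 of 4 other SREBP targets passed, against 4.61% of all genes in either direction. The 2, named after their values were seen, were RABGGTB, a subunit of the enzyme that adds geranylgeranyl groups to Rab proteins (-1.55 ± 0.40), and TECR, the last reductase of the elongation cycle (0.68 ± 0.25). TECR was at 32.6, 21, 28.5 and 60.2 CPM in the deletion libraries and from 16 to 30.5 in the negative controls. Its highest value was in the deletion library that stood apart. For RABGGTB the 2 highest negative controls, 52.5 and 67.3 CPM, stood apart. For the SMAD3 deletion the numbers were 0 of 9, 1 of 11 (lower), 2 of 17 (higher), 1 of 5 (higher) and 0 of 4, and for HPRT targeting in both sets 0 of 9, 0 of 11, 0 of 17, 2 of 6 (higher) and 0 of 4. The shares of all genes were 6.78% and 3.19%. The smallest p of each list in that last comparison belonged to NR1H2, the liver X receptor beta that senses oxysterols (0.40 ± 0.14), TMEM97, a sterol-regulated membrane protein that binds NPC1 (-0.25 ± 0.13), ACSL5, an acyl-CoA synthetase (0.75 ± 0.43), RABGGTB (-0.41 ± 0.29) and ERLIN2, which binds SCAP and INSIG1 in the endoplasmic reticulum (0.16 ± 0.12), all with an edgeR adjusted p of 0.937 or more. ACSL5 was at 15.2 CPM in HPRT-targeted replicate 4 of set B, which stood apart. The other HPRT-targeted libraries held it at 2.4 to 5.77 CPM. Among the HPRT-targeted libraries of each set, NR1H2 was highest in those that stood apart (37.1 CPM in set A, 63.3 and 62.8 in set B).

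Between the negative controls of the 2 sets 4 of the 47 pathway genes tested were called, all higher in set B, against 5.11% of all genes called in that direction; ACAT2, HMGCS1, ACLY and SCD were lower. ELOVL1, which elongates saturated very long chains, was at 29.6 ± 4.61 CPM (SD, n = 4) in set A and 64.5 ± 17.9 CPM (SD, n = 7) in set B, a log2 fold change of 1.12 ± 0.18 (edgeR adjusted p = 0.000204). HACD2, a dehydratase of the same elongation cycle, had 0.91 ± 0.20 (0.00352), NR1H2 0.93 ± 0.20 (0.00298) and TMEM97 0.91 ± 0.17 (0.000777). All 4 remained called without the 7 libraries, where 9 of the 47 were called higher, against 14.6% of all genes, and 4 lower, against 13.5%. The 4 named genes then had log2 fold changes of 0.98, 0.73, 0.90 and 0.93.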

How the data were processed

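The data were 27 QuantSeq 3′ RNA libraries of teloHAEC. The authors deposited a table of whole-number read counts with 14008 genes and 27 libraries, and 0 of its count columns were left unused. Per the submitters' processing notes edgeR 3.24.3 and the build hg38 were used; which aligner, counter and strand setting made the counts is not given in the sources used here. The counts are not corrected for molecules, so limits cover counting error only. A count of 0 allows up to 0.387 to 0.875 CPM (3 counts of the library's total). Each library was counted as 1 sample, since no pair within a group matched within sampling noise (chi-square over degrees of freedom 3.03 to 78.9).

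The tests used edgeR 4.0.16 (R 4.3.3) with TMM factors, filterByExpr and a two-sided quasi-likelihood test on all genes; p-values were adjusted by Benjamini-Hochberg over every gene in the fit and called under 0.05. Separate fits were made of set A (12 libraries, 11467 genes), set B (15, 11769), the 19 control libraries with set as a term (11836) or all 27 (12055). The SE is the log2 fold change divided by the square root of F, and 95% intervals use it with the t distribution. The script was tested on simulated data. Alternatives were DESeq2 1.42.0, limma 3.58.1 voom with sample quality weights, DESeq2 size factors, no filter, a mean CPM of at least 10, all 27 libraries in the fit and leaving out each library; leaving out 7 libraries (median correlation over 3 scaled median absolute deviations below that of their set), alone or with 1 more, was added. Symbols came from current names for 13949 genes and GENCODE 29 for 57.

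The members and lists were chosen with earlier results of these data known. The rule gives library values for the most abundant member of each role, the 2 smallest p per comparison against a negative control, and every called member, and names the 3 highest and 3 lowest fold changes of each comparison at a mean CPM of at least 10; all 33 may be named. The library values of ACACA, NSDHL in the LDAH deletion, FASN and MSMO1 and the values without the 7 libraries were singled out after they were seen. Of other list genes those called and, for HPRT targeting in both sets, the smallest p of each list are named.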

Additional observations from a re-analysis of the deposited data

Results flagged for a closer look

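In 8 of 198 sets of values (33 genes in 6 groups, 4.04%) 1 library lay far from the others of its group by Dixon's criterion, where chance alone gives about 1 in 20; 4 of the 8 were in libraries that stood apart. Of those, FADS2 was at 429 CPM and FDPS at 289 in SMAD3 deletion replicate 4, against 214 to 239.8 and 213 to 222 in the other 3 libraries. MSMO1 was at 204 in HPRT-targeted replicate 3 of set A, against 133 to 136. IDI1 was at 103 in HPRT-targeted replicate 2 of set B, against 66.5 to 71.6.

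The other 4 were in libraries that did not stand apart. SREBF2 was at 55.3 CPM in LDAH deletion replicate 2, against 38.2 to 40.2 in the others. IDI1 was at 85 in SMAD3 deletion replicate 3, against 73.3 to 74.1. NSDHL was lowest, at 51.4, in SMAD3 deletion replicate 2, against 61.6 to 62.1, and HSD17B7 lowest, at 5.6, in HPRT-targeted replicate 1 of set A, against 9.25 to 9.97.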

How the results depend on the processing

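In the 9 edit comparisons 0 members were called with all libraries, with DESeq2, limma voom, DESeq2 size factors, no filter, a mean CPM of at least 10 and, in the 7 fits it applies to, all 27 libraries; leaving out each library gave 0 to 0. Without the 7 libraries that stood apart the LDAH deletion gave 1 called member (SREBF1), and 0 to 1 when 1 more was left out; the other 8 gave 0. Between the negative controls of the 2 sets 5 members were called, 4 without a filter, 6 at a mean CPM of at least 10, 13 with limma voom and 13 without the 7 libraries, 4 to 6 with 1 library left out and 11 to 14 with the 7 and 1 more left out; the cause was not tested. HSD17B7 lost its call there without a filter (1.00 became 1.02, edgeR adjusted p = 0.0514) and without any 1 of 17 libraries (0.72 to 1.14 over all 27 such fits). Of 66 named log2 fold changes 10 changed sign under at least 1 alternative, none of them called: FADS2 against HPRT-targeted cells of set A, FASN for HPRT targeting in both sets, INSIG2 in 3 comparisons, HSD17B7 for the difference between deletions, and FDPS, LSS, NSDHL and SC5D for HPRT targeting in set B. Members below about 15 CPM (INSIG2, HSD17B7 and TM7SF2) have wide intervals at these depths. No paired analysis was possible because the labels give replicates only a number in the title, with no stated meaning, and numbers in accession order pair nothing.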
